A study of Mus musculus with 10 samples.

Results

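The genes described here are 29 genes that mark granule cells and Purkinje cells of the cerebellum or the early tissue from which these cells arise, measured in hippocampus of male mice. They were chosen by name, after their values in 1 of the 10 arrays had been seen: the rule took the array with Gabra6 over 8 on the log2 scale, which is DU6 replicate 2, and asked for the level of each gene there against the other 9 arrays. Gabra6 was 11.11 in that array, and the next highest array had 2.72, so no array lay near the threshold. The 29 genes correspond to 31 of the 22206 transcript clusters of the array, because Rora has 3 clusters, of which 1 has a chromosomal position and is used in all counts below. Every excess of DU6 replicate 2 given here is therefore a description of the array that chose the genes, without a test.

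The study compared the hippocampus of DU6 mice, an obese line bred for high body mass, with that of FztDU mice, the unselected control line, to look for inflammatory signatures. There were 5 arrays per line, each from the hippocampi of 1 male mouse, untreated, 21 to 22 weeks old per the labels. The study's methods give 21 weeks, although its results give 11 weeks for the same arrays. Both lines are outbred and differ at many loci, so line differences and single alleles cannot be told apart. Array medians lay between 5.47 and 5.52, and values ranged from 1.01 to 12.79 on the log2 scale. In DU6 replicate 2, 159 clusters lay more than 1 log2 unit above all other arrays, against 0 to 6 clusters in each of the other 9, so DU6 replicate 2 stands apart from its line, and line differences are given with and without it. Markers of the labelled tissue were present in all arrays: the mean of 15 clusters of hippocampal pyramidal and dentate genes was 7.46 to 7.84 in the other 9 arrays and 6.95 in DU6 replicate 2, which had the lowest value for 10 of the 15.

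In the cerebellar cortex, granule cells are small excitatory neurons whose parallel fibres contact the dendrites of Purkinje cells, the inhibitory output neurons of the cortex. Granule cells carry a GABA-A receptor with the subunit encoded by Gabra6 and secrete cerebellin proteins that hold the parallel fibre synapse together. Purkinje cells release calcium through the inositol trisphosphate receptor encoded by Itpr1 and take up glutamate through the transporter encoded by Slc1a6. Both cell types arise next to the midbrain-hindbrain boundary, where the Engrailed genes En1 and En2 are active, and several of the transcription factors listed here also act in other brain regions.

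The promoters of Gabra6, with the widest difference of all genes between DU6 replicate 2 and the other arrays, and of Pcp2, the Purkinje cell gene whose promoter is used to direct transgenes to that cell, are shown so that the sequence before the start of each can be compared. Both are the 250 bases before the transcription start in RefSeq, build GRCm38.p6 (mm10), on the minus strand. Capitals in the Pcp2 window mark the E-box CAGATG and, near the start, AGGTCA, a half-site read by nuclear receptors including the RORA protein. The Gabra6 window held none of the motifs searched.
Gabra6, chr11:42321073-42321322: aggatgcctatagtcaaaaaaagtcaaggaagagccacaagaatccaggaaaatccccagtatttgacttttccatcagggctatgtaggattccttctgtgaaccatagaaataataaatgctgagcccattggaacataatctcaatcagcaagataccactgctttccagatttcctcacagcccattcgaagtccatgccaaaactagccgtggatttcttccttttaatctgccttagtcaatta
Pcp2, chr8:3625548-3625797: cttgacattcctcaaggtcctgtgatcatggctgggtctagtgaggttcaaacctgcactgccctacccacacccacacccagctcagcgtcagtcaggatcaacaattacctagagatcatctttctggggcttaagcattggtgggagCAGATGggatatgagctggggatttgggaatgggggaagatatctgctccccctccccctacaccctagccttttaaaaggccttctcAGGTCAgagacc
Windows were found for 20 of the 29 genes, 28 windows in all, some of which overlap because 1 gene can have several starts. On either strand, AGGTCA was present in 7 of the 28 windows (25.0%), belonging to Arhgef33, Barhl1, Fat2, Pcp2 and Rgs8, and in 14.0% of all 32851 windows. The homeodomain core TAATTA was present in 7.14% against 4.84%, CAGATG in 21.4% against 14.4%, and CAGCAGG, a motif of Zic proteins, in 17.9% against 8.44%. These are matches of letters in overlapping windows and were not tested.

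DU6 replicate 2 had the highest value of all 10 arrays for 26 of the 29 genes, the exceptions being Rora, En1 and Atoh1. It exceeded the highest of the other 9 arrays by more than 1 log2 unit for 20 of the 29 genes, against a background of 0.716% of all clusters. The rule used these values, so nothing is read from the difference. The median excess over the mean of the other 9 arrays was 3.14 over the 29 genes, with a range of -0.40 to 8.73, beside -0.03 over all clusters. The excess was over 4 for 10 genes, between 2 and 4 for 9, between 1 and 2 for 5 and below 1 for 5. Of the 14 clusters anywhere on the array that lay more than 3 log2 units above all other arrays, 12 were among these genes.

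**Figure D1:**
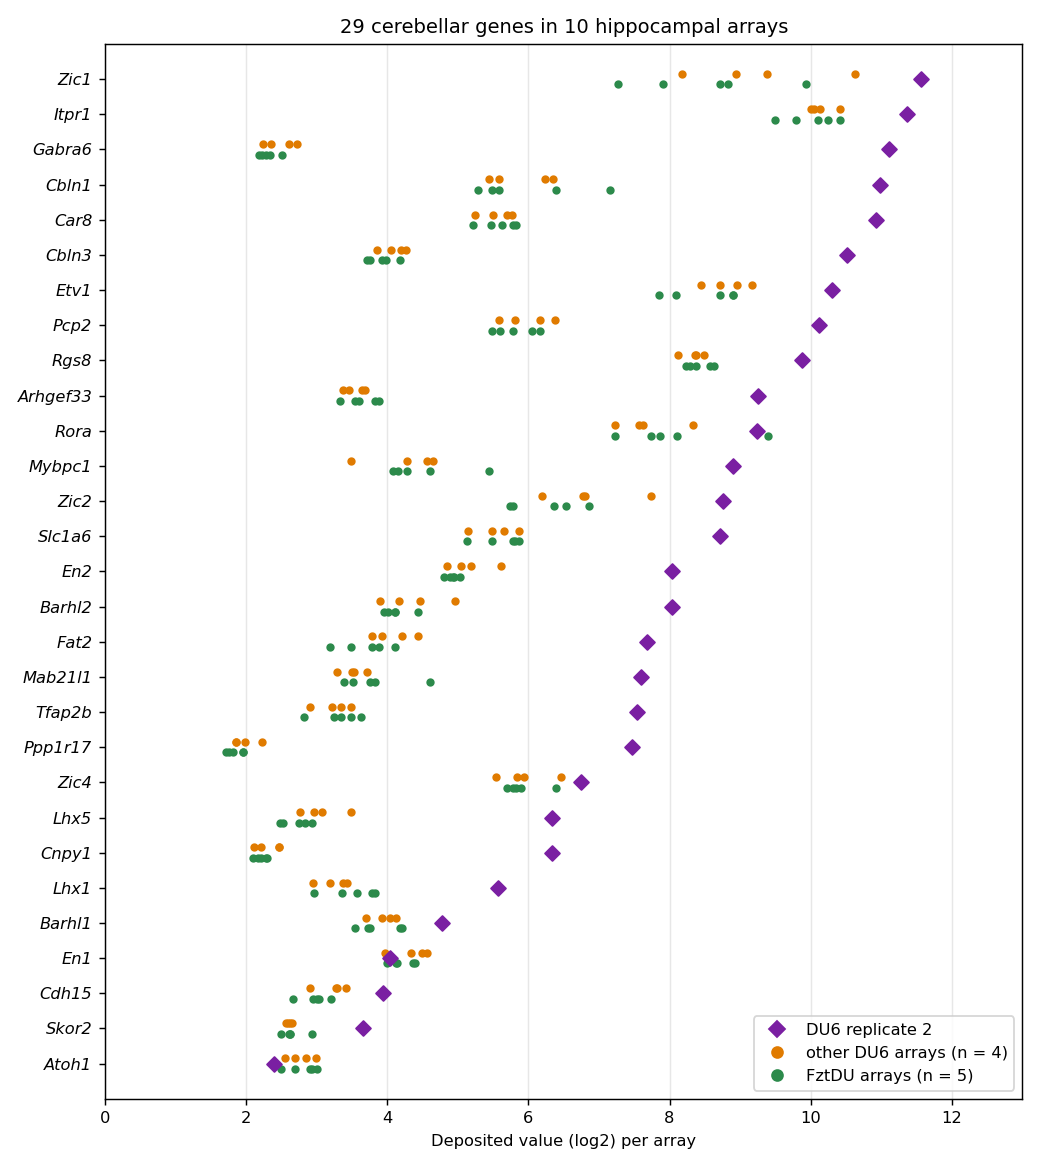
Value of each of the 29 genes in each array (x axis, log2 as deposited), with genes ordered by their value in DU6 replicate 2 (violet diamonds), beside the other 4 DU6 arrays (orange) and 5 FztDU arrays (green). The diamond lies to the right of every other point for 26 genes, and the widest gap is that of Gabra6, at 11.11 against 2.18 to 2.72.

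Genes of granule cell proteins showed the widest span. Gabra6 was 2.24, 11.11, 2.72, 2.61 and 2.35 in DU6 replicates 1 to 5 and 2.34, 2.18, 2.28, 2.22 and 2.51 in FztDU replicates 1 to 5, so 9 arrays lay within 0.54 log2 units and 1 lay 8.39 above the highest of them. Cbln3, whose product assembles with that of Cbln1, was 10.51 in DU6 replicate 2 and 3.72 to 4.26 (median 3.98) in the others, a 91.8-fold excess over their mean. Cbln1, the cerebellin that binds presynaptic neurexins at the parallel fibre synapse, was 10.98 against 5.29 to 7.16 (median 5.59). The highest of the other Cbln1 values, 7.16, was in FztDU replicate 2, and Cbln1 was the member of this group with the widest range without DU6 replicate 2. Fat2, a giant cadherin of granule cells, was 7.68 against 3.19 to 4.44, and Cdh15, the muscle cadherin that granule cells also make, was 3.94 against 2.66 to 3.41. Of the 5 genes in this group, Cdh15 had the smallest excess, 0.86, and was near the lower end of the array scale in every array.

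Transcription factors of the granule lineage differed less. Zic1, a zinc finger factor of granule cells that is also active in the septum, thalamus and meninges, was 8.94, 11.56, 8.18, 9.38 and 10.63 in DU6 replicates 1 to 5 and 8.72, 7.27, 7.91, 8.83 and 9.94 in FztDU replicates 1 to 5. It thus had a high level in all arrays and spread over 3.36 log2 units in the other 9 alone. Zic2 was 8.76 in DU6 replicate 2 against 5.74 to 7.73, and Zic4 was 6.75 against 5.54 to 6.46. Zic1 and Zic4 lie together on chromosome 9 in opposite directions. The RefSeq starts taken for them were 3204 bases apart, whereas in the annotation of the array their clusters overlap. Both genes had their highest value of the other 9 arrays in DU6 replicate 5. Etv1, an ETS factor of maturing granule cells, was 10.30 against 7.85 to 9.17, and Barhl1, a homeobox factor of granule cell precursors, was 4.77 against 3.54 to 4.21. Atoh1, the factor that specifies granule cell precursors in the embryo and is lost in mature cells, was 2.39 in DU6 replicate 2 and had a lowest value of 2.50 and a median of 2.85 in the others, so that DU6 replicate 2 was the lowest of the 10 arrays, all of them at the lower end of the scale.

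Among genes of Purkinje cell proteins, Ppp1r17, which encodes a phosphatase inhibitor acted on by cyclic GMP-dependent kinase, was 7.47 in DU6 replicate 2 and 1.72 to 2.22 in the other 9 arrays, and the deposited table calls it expressed in neither line. Car8, a carbonic anhydrase relative that binds the inositol trisphosphate receptor, was 10.92 against 5.22 to 5.82, and Pcp2, a modulator of G protein signalling, was 10.12 against 5.49 to 6.37. Slc1a6 was 8.72 against 5.13 to 5.87. These 4 genes were thus close together in 9 arrays, none spanning more than 1 log2 unit, and far above that in the remaining 1. Rgs8, a regulator of G protein signalling, was 9.88 against 8.12 to 8.63. Itpr1 was 10.05, 11.37, 10.41, 10.13 and 10.01 in the DU6 arrays and 9.79, 10.41, 10.24, 9.49 and 10.10 in the FztDU arrays. Rgs8 and Itpr1 are expressed by hippocampal neurons as well, and their excess, 1.50 and 1.30, was the smallest of this group.

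Of the Purkinje lineage transcription factors, the LIM homeobox genes Lhx5 and Lhx1 were 6.34 against 2.48 to 3.49 and 5.57 against 2.95 to 3.82. Skor2, a corepressor needed for Purkinje cell maturation, was 3.65 against 2.49 to 2.93. Rora, a nuclear receptor required by Purkinje cells and abundant in thalamus, did not have its highest value in DU6 replicate 2: it was 7.63, 9.24, 7.56, 7.23 and 8.33 in the DU6 arrays and 7.86, 8.11, 7.74, 7.23 and 9.39 in the FztDU arrays. One of its clusters without a chromosomal position gave the same order, with 9.16 in DU6 replicate 2 and 9.38 in FztDU replicate 5, whereas the other stayed between 2.75 and 3.56 in all arrays.

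Around the midbrain-hindbrain boundary, En2 was 8.04 in DU6 replicate 2 and 4.81 to 5.61 in the others, and Cnpy1, a regulator of fibroblast growth factor signalling at this boundary in zebrafish, was 6.33 against 2.10 to 2.47. En1, the partner of En2 in the embryo, was 4.04 in DU6 replicate 2 and 3.97 to 4.57 in the others, and did not stand apart. The remaining 5 genes are grouped without a common role. Arhgef33, which encodes a guanine nucleotide exchange factor, was 9.26 against 3.33 to 3.88, Mybpc1, a myosin-binding protein of slow muscle, was 8.90 against 3.48 to 5.44, and Tfap2b, an AP-2 transcription factor, was 7.54 against 2.82 to 3.63. Barhl2, a homeobox factor related to Barhl1, was 8.03 against 3.90 to 4.96, and Mab21l1 was 7.59 against 3.29 to 4.61. All 5 had an excess of 3.79 or more, and the median of this group was 4.26, beside 5.03 for the granule cell proteins.

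**Figure D2:**
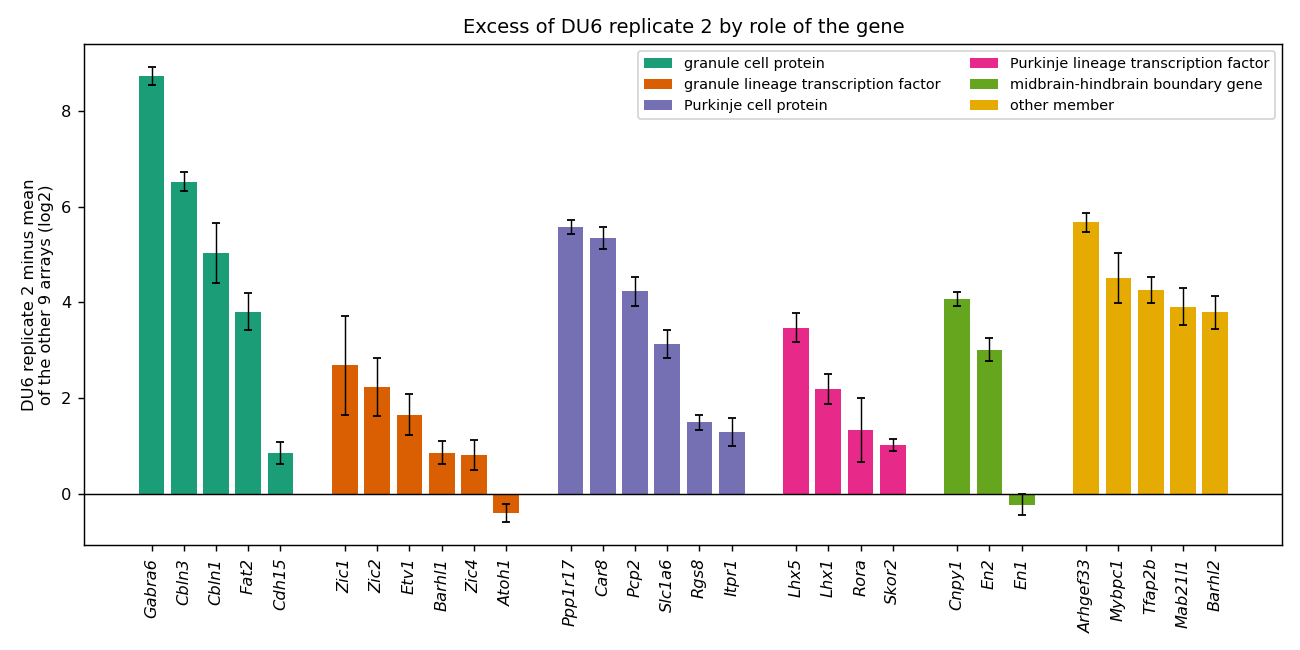
Difference between DU6 replicate 2 and the mean of the other 9 arrays (y axis, log2) for each gene, grouped by role. Bars show the difference and error bars the SD of the other 9 arrays, so they describe spread among arrays and not the error of the single array; the tallest bar is Gabra6 at 8.73, and En1 and Atoh1 lie below 0.

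As to which of these genes are part of the usual hippocampal signal, the deposited table calls 20 of the 29 expressed in FztDU, a line with no array of this kind, against 82.9% of all clusters. The 9 genes not called expressed were Gabra6, Ppp1r17, Cnpy1, Lhx5, Lhx1, Skor2, Barhl1, Cdh15 and Atoh1. Barhl1 and Cdh15 were nevertheless called expressed in DU6. By level, 5 genes had a median of 7 or more over the other 9 arrays: Itpr1 (10.10), Zic1 (8.83), Etv1 (8.72), Rgs8 (8.37) and Rora (7.74). Car8, Cbln1, Pcp2, Slc1a6, Zic2 and Zic4 had medians between 5 and 7, and 18 genes lay below 5, of which 6 lay below 3. The excess of DU6 replicate 2 ran from 1.30 to 2.69 for the 5 genes at high level elsewhere, while the 10 genes with an excess over 4 had medians of at most 5.81, the highest being those of Pcp2, Car8 and Cbln1. In bulk tissue, fewer cells of a type and less RNA per cell cannot be told apart.

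Over the 9 arrays other than DU6 replicate 2, the range was at most 1 log2 unit for 19 genes. The share of all clusters with such a range was not counted, and 18 of the 29 genes had medians below 5. The range over the 9 arrays was above 1 for Cbln1, Mybpc1, Mab21l1, Fat2, Barhl2, Lhx5, Zic1, Zic2, Etv1 and Rora. DU6 replicate 5 had the highest of these 9 values for 8 genes, among them the 3 Zic genes, En1, En2 and Fat2, while FztDU replicate 5 had it for Rora and Rgs8, and FztDU replicate 2 for Car8, Cbln1, Mybpc1 and Mab21l1. Beside these, the mean of 9 thalamus clusters was 8.21 in DU6 replicate 5 and 8.29 in FztDU replicate 5 against 6.67 to 7.50 in the other arrays, and Tcf7l2, a transcription factor that defines thalamic neurons, was 9.98 and 10.31 there. The mean of 11 choroid plexus clusters was 7.98 to 8.39 in DU6 replicates 1 and 5 and FztDU replicate 5 and 5.11 to 6.18 elsewhere. The part of these tissues in the values of Zic1 and Rora was not tested. Neither list was high in DU6 replicate 2, where the thalamus mean was 7.17 and the choroid plexus mean 5.11, the lowest of all arrays.

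**Figure D3:**
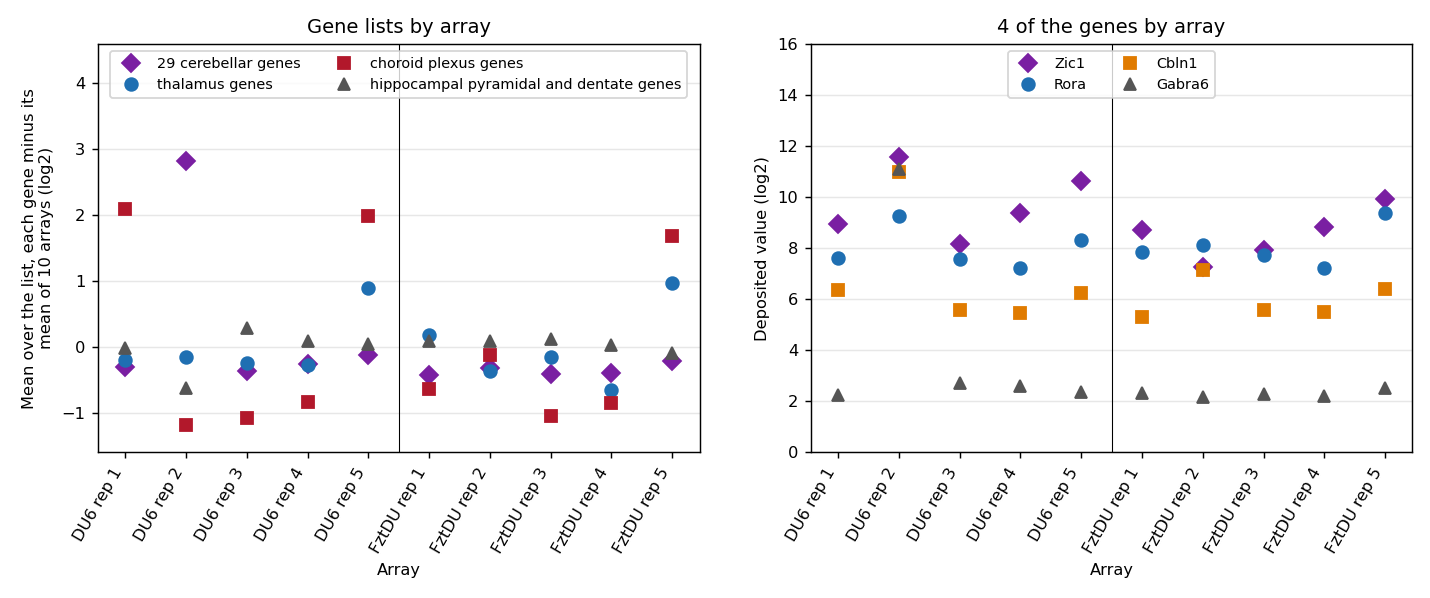
Left, mean over the 29 cerebellar genes and over thalamus, choroid plexus and hippocampal gene lists in each array, each gene first set relative to its mean of 10 arrays (log2); right, values of Zic1, Rora, Cbln1 and Gabra6 in each array (log2). The 29 genes stand at 2.82 in DU6 replicate 2 and between -0.42 and -0.12 in the others, whereas thalamus genes are highest in DU6 replicate 5 and FztDU replicate 5.

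The test that the choice of genes did not use is the line difference without DU6 replicate 2, 4 DU6 against 5 FztDU arrays, fitted with limma over all 22206 clusters. None of the 29 genes passed an adjusted p of 0.05 with a fold above 2, against 0.108% of all clusters, and the smallest adjusted p among them was 0.71 by limma. At an unadjusted p below 0.05, 1 of the 29 genes passed, Lhx5, against 6.55% of clusters. The median difference, DU6 minus FztDU, was 0.10 over the 29 genes (range -0.38 to 0.75) and 0.00 over all clusters, and 17 of the 29 had the higher mean in DU6. For none of the 29 did the values of both lines fail to overlap, which held for 2.18% of all clusters.

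Lhx5 was 2.77, 3.49, 3.08 and 2.96 in the 4 DU6 arrays and 2.75, 2.48, 2.52, 2.93 and 2.83 in the FztDU arrays, overlapping ranges at the lower end of the scale where the table does not call it expressed. Its difference was 0.37 (95% confidence interval 0.04 to 0.71, adjusted p = 0.71 by limma). Zic1 differed by 0.75 (-0.41 to 1.91), adjusted p = 0.903 by limma. For Zic1, permuting the line labels over all exact splits of the 9 arrays gave p = 0.310 (two-sided), and these splits allow no value below 0.00794. Zic2 differed by 0.62 (-0.03 to 1.27) and Fat2 by 0.40 (-0.01 to 0.82), and their intervals include 0. Rora was lower in DU6 by its mean, at -0.38 (-1.17 to 0.41), with FztDU replicate 5 the highest array. For Gabra6 the difference was 0.17 (-0.09 to 0.44). Gabra6, like Lhx5, is called expressed in neither line, so the width of its interval says nothing of a difference in expression.

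With all 10 arrays, which include the array that chose the genes, none of the 29 passed the same thresholds, against 0.113% of clusters. At an unadjusted p below 0.05, Zic2 and Cdh15 passed, 2 of 29 against 5.86% of clusters. The median difference was 0.80 (range -0.11 to 1.90), the mean was higher in DU6 for 27 of the 29 genes, and the smallest adjusted p was 0.787 by limma. Gabra6 had the largest difference, 1.90, with a 95% confidence interval of -1.11 to 4.91 and an adjusted p of 0.980 by limma. Leaving out DU6 replicate 2 brought its difference to 0.17 and the median of the 29 genes to 0.10. The deposited table gives, on its own log2 scale, an SD in DU6 above that in FztDU for 28 of the 29 genes, with a median of 2.43 against 0.31, while over all clusters the medians were 0.29 and 0.26.

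**Figure D4:**
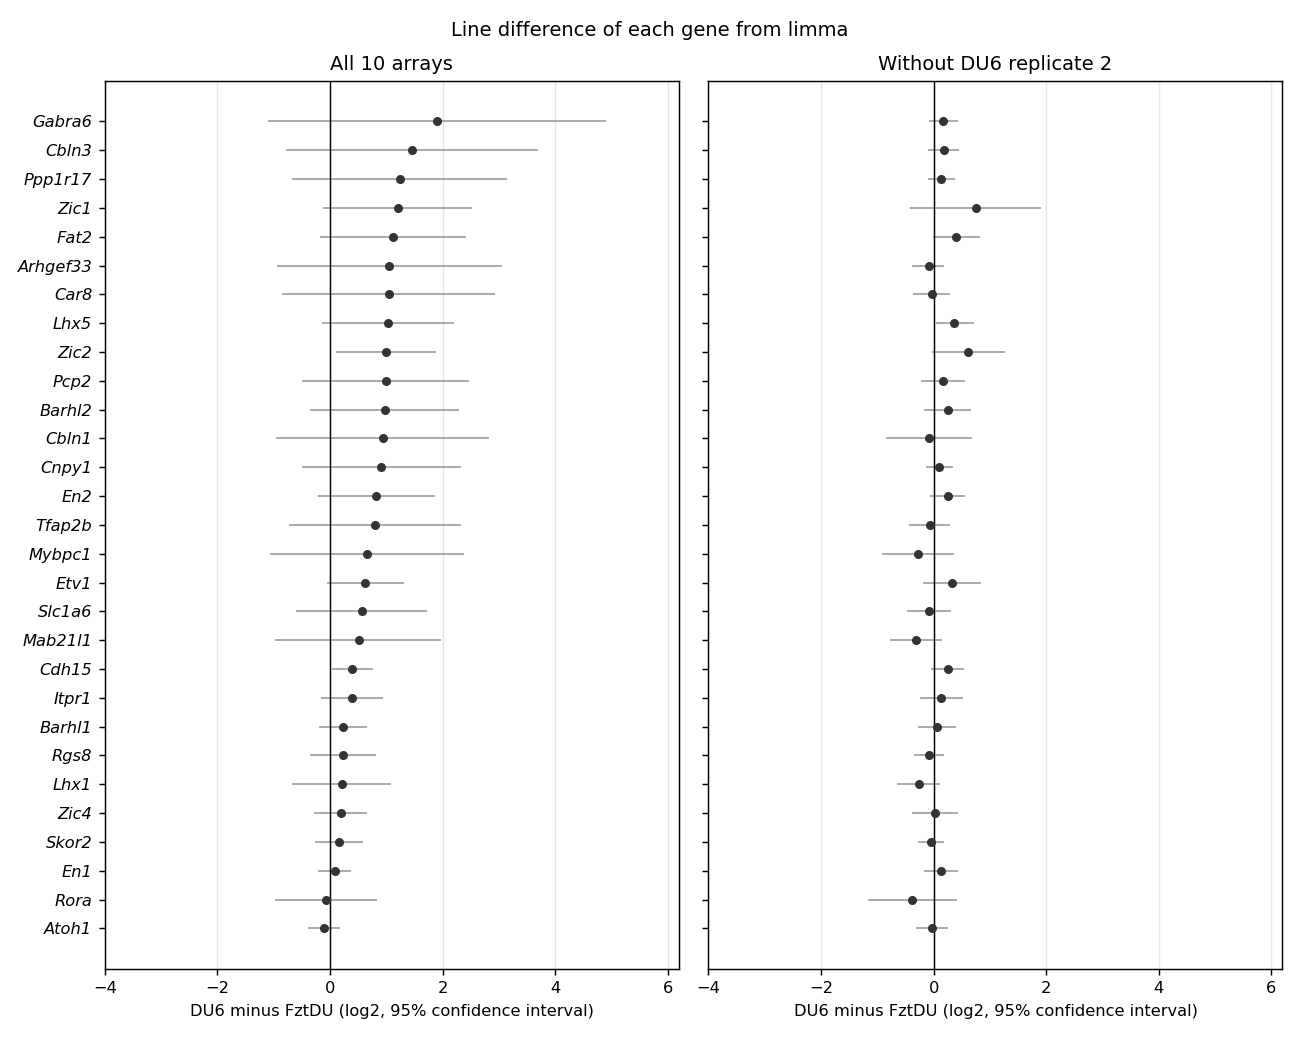
Line difference of each gene (x axis, DU6 minus FztDU, log2) with its 95% confidence interval from limma, from all 10 arrays (left) and without DU6 replicate 2 (right). On the left the differences run from -0.11 to 1.90 with wide intervals, and on the right from -0.38 to 0.75.

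Other genes of the same cells that were not among the 29 had a smaller median excess in DU6 replicate 2. The 29 were chosen after their values in this array had been seen, so nothing is read from that contrast. Of 16 Purkinje cell genes, 12 had their highest value there, with a median excess of 1.37. Of these 16, 6 were more than 1 log2 unit above all other arrays, against 0.716% of all clusters. The share of all clusters with their highest value in DU6 replicate 2 was not counted. Pvalb, a calcium buffer, was 9.65 there against 6.50 to 7.74. Plcb4, a phospholipase of metabotropic glutamate signalling, was 9.18, but also 8.50 in FztDU replicate 5 and 7.97 in DU6 replicate 5, the arrays with high thalamus genes. Among 9 measured granule cell genes, 8 had their highest value in DU6 replicate 2 and 4 were more than 1 log2 unit above all others. Grm4, a presynaptic glutamate receptor, led them at 9.58 against 5.89 to 6.98, and Chn2 was 10.89 against 7.45 to 8.52. Among 12 genes of other cerebellar cells, 9 had their highest value there and 5 were more than 1 log2 unit above all other arrays. Dao, of Bergmann glia and other astrocytes, was 7.36 against 3.31 to 4.10. Gdf10 was 9.08 and Eomes, of unipolar brush cells, was 6.45. Hopx, at 7.41 against 7.11 to 7.64, Lypd6 and Grm2 did not have their highest value there. The excess had a median of 1.37, 1.13 and 0.93 over the Purkinje, granule and other cerebellar lists, and each list held genes without it.

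Functional partners of the 29 genes did not all share it. Over 7 genes of the cerebellin synapse the median excess was 0.12, and Cbln2, a cerebellin of other brain regions, was 5.85, below 7 of the other 9 arrays. Over 11 genes of metabotropic glutamate signalling and calcium release the median excess was 0.01, although Homer3, a scaffold of these receptors, was 8.81 against 7.18 to 7.74. Most genes of adjacent regions were not high. The median excess was -0.14 over 12 brainstem clusters. Slc6a5, the glycine transporter, which is also on the list of other cerebellar cell genes, was the exception there at 5.54 against 3.82 to 4.46. The median excess was -0.10 over 7 midbrain clusters, where Th was highest in DU6 replicate 2, at 5.51 against 4.16 to 5.09. It was -0.47 over 9 neocortex clusters and -0.40 over 9 thalamus clusters, where Calb2, a calcium buffer that is also on the granule cell list, was the exception at 10.04 against 6.15 to 8.87. In each of these lists none of the genes passed the limma test without DU6 replicate 2. At an unadjusted p below 0.05 there were 3 higher and 1 lower in DU6 among other cerebellar genes, 1 higher among granule cell genes and 0 among Purkinje cell genes, and at most 1 in either direction in each other list of this paragraph, beside the 6.55% of all clusters given above.

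Outside the 29 genes and these lists, the clusters whose pattern was most like theirs, by the gap between DU6 replicate 2 and the highest of the other 9 arrays, were Adamts18 (3.03), B3gnt5 (2.78), Megf11 (2.67), Tfap2a (2.46), Cep76 (2.39), Trim62 (2.35), Fgf7 (2.31), Aqp6 (2.28), Exph5 (2.27) and Mab21l2 (2.20), each in log2 units over 10 arrays. Tfap2a and Mab21l2 are relatives of Tfap2b and Mab21l1. In the other direction, 7 of all clusters were more than 1 log2 unit below the lowest of the other arrays, and the widest gap, 1.29, was that of Dsp, a gene of the hippocampal list that marks dentate granule cells, at 5.31. Outside the lists, Rbm3, a cold-induced RNA-binding protein, was 8.33 against 9.44 to 10.29 and Cdc42se2 was 6.58 against 7.60 to 8.85. Tnfrsf8, St8sia6 and Dbpht2 were the other 3 of the 5 widest there.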

How the data were processed

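RNA from hippocampus of 5 DU6 and 5 FztDU male mice was hybridised to Clariom S Mouse arrays. The deposited values are log2 expression values per transcript cluster and array, which the authors made with the Transcriptome Analysis Console by SST-RMA normalisation, with annotation for mm10. The authors' averages, standard deviations and calls of expression per line come from a separate deposited table on its own log2 scale, whose other columns (the authors' fold changes and p-values) were not used. An array signal is relative, so the number of arrays limits the precision. The labels call the samples biological replicates, 1 mouse each, and groups were taken from the labels.

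Lines were compared on the log2 values with limma 3.58.1 in R 4.3.3 (lmFit and eBayes, two-sided, Benjamini-Hochberg over all 22206 clusters, no filter on low values), called at an adjusted p of 0.05 and a fold of 2, with an exact permutation test over samples for single genes. The fit was made with 10 arrays and with 9, without DU6 replicate 2, and was tested on simulated data. The members and lists were chosen with earlier results of these data known. Named are all 29 genes. From each further list, up to 4 genes with the widest excess in DU6 replicate 2 and 2 with the smallest p could be named. Outside the lists, the 10 clusters with the widest gap upwards and the 5 downwards were named. Not every gene that this rule allows is reported here. Quantile and median scaling, a low filter, trend and robust moderation, array weights, a replicate block and left-out arrays were tried as alternatives.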

Additional observations from a re-analysis of the deposited data

Results flagged for a closer look

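Within each line's 5 arrays, 62 groups of values (31 clusters in 2 lines) were examined for an array far from the other 4, by the gap to its nearest neighbour as a share of the whole range, against a critical value of 0.71. Chance flags about 1 group in 20. Of the 20 groups that were past it, 19 had DU6 replicate 2 as the distant array, the array whose values chose these genes, with ratios of 0.743 to 0.947. The choice of genes set this count, so nothing is read from it against chance. Its value was 11.11 for Gabra6, 10.51 for Cbln3, 10.98 for Cbln1 and 7.68 for Fat2 among granule cell proteins. It was 7.47 for Ppp1r17, 10.92 for Car8, 10.12 for Pcp2, 8.72 for Slc1a6 and 9.88 for Rgs8 among Purkinje cell proteins. It was 6.34 for Lhx5, 5.57 for Lhx1 and 3.65 for Skor2 among Purkinje lineage factors, and 8.04 for En2 and 6.33 for Cnpy1 among boundary genes. In the remaining group it was 9.26 for Arhgef33, 8.90 for Mybpc1, 7.54 for Tfap2b, 7.59 for Mab21l1 and 8.03 for Barhl2. The other distant value was that of a Rora cluster without a chromosomal position, 9.38 in FztDU replicate 5, an array with high thalamus genes, whose part in it was not tested.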

How the results depend on the processing

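The count of 0 genes called between the lines was the same under every alternative that kept the adjusted p, in both fits; at an unadjusted p below 0.05 it was 2 with 10 arrays and 1 with 9. The 10-array median difference of 0.80 moved to 0.43 with array weights and to 1.17 without the 3 arrays with high choroid plexus genes, and leaving out 1 array at a time gave 0.10 (without DU6 replicate 2) to 1.00. The 9-array median of 0.10 ranged from 0.04 to 0.13, the lowest without both arrays with the highest Zic1, an alternative added after seeing the data. The excess of DU6 replicate 2 had a median of 3.08 to 3.19. Of the genes, 11 in place of 20 counted as detected when the median of the other 9 arrays had to lie above the 50th percentile of all clusters. Same-numbered samples did not all deviate together (r from -0.023 to 0.287), so the numbers were not taken as pairs; the replicate block gave 0 genes called in both fits and medians of 0.80 and 0.12. Of 211 values of single genes under alternatives, 210 kept their call or stayed within 1 SD and 1 moved. The cause of these changes was not tested. The number of arrays limits what can be seen: without DU6 replicate 2 the 95% confidence interval of the Zic1 difference ran from -0.41 to 1.91.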

Other observations

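A list of 13 meningeal fibroblast genes, added after the values of Zic1 by array had been seen, had a median excess of 0.16 in DU6 replicate 2 (range -0.55 to 1.35), with the highest value of the 10 arrays there for 3 of the 13 and none more than 1 log2 unit above the others. Without DU6 replicate 2, none of the 13 passed the limma test between the lines. At an unadjusted p below 0.05, 2 (Lum and Bgn) were higher in DU6, against 6.55% of all clusters in either direction. The mean of this list by array was 6.27 in DU6 replicate 2 and 5.64 to 6.58 in the others. It was 6.51 and 6.31 in DU6 replicate 5 and FztDU replicate 5, the arrays with the highest Zic1 after DU6 replicate 2. The highest mean of the list, 6.58, was in DU6 replicate 1, where Zic1 was 8.94. FztDU replicate 4, with Zic1 at 8.83, had a mean of 6.36, also above FztDU replicate 5. Among genes outside the cerebellar lists, Spink8, a gene of hippocampal pyramidal cells, was 6.31 to 6.67 in the 4 DU6 arrays without DU6 replicate 2 and 4.80 to 6.32 in the FztDU arrays, a difference of 1.17 with an adjusted p of 0.138 by limma. Grm2, a glutamate receptor of dentate granule cells and cerebellar Golgi cells, is on the list of other cerebellar cell genes. It differed by -0.63 with an adjusted p of 0.208 by limma.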
